A study of Mus musculus with 11 samples.

Results

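The nuclear genes of oxidative phosphorylation were examined in Tregs (regulatory T cells), which are CD4 cells that depend on the factor Foxp3 and hold immune responses in check. Members were taken by gene symbol from a table of RPKM values, which scale reads to the length of the gene and the size of the library. A symbol counted if it began with Nduf, Uqcr, Cox4 to Cox8 or Atp5, or was Sdha, Sdhb, Sdhc or Sdhd. This gave 87 of 10992 genes, and all 87 passed the filter on low values. They comprised 38 subunits of complex I, 8 complex I assembly factors, 4 subunits of complex II, 8 of complex III, 12 of complex IV and 17 of complex V. Ndufa4 and Cox7a2l, which act at complex IV, were placed there. Ndufb4c and the pseudogene Ndufs5-ps are near copies of Ndufb4 and Ndufs5, so reads may be split between each pair.

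Live cells positive for CD3, CD4 and Foxp3 were sorted from the spleen or the visceral adipose tissue (VAT) of 25-week-old male mice. Every mouse, controls included, carried Foxp3 YFP-cre, a Cre recombinase made where Foxp3 is expressed, so that loss of a floxed gene was limited to Foxp3-expressing cells. The Srebf2 gene, which encodes the cholesterol regulator SREBP2, was wt/wt in the group called WT and flox/flox in the group called KO. VAT gave 3 WT and 3 KO libraries. From spleen, 2 WT and 2 KO libraries were analysed, replicate 2 and replicate 3 of each. The labels also name a spleen KO replicate 1, not analysed here, and a further column headed as a spleen WT replicate 1 matched no label and was not used. Nothing in the labels ties a library to its own mouse or to a pool, so the p-values here reflect the spread among libraries, part of which may be technical.

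Oxidative phosphorylation makes ATP at the inner mitochondrial membrane. Complex I takes electrons from NADH and complex II takes them from succinate. Complex III passes them to cytochrome c, complex IV passes them on to oxygen, and the proton gradient built on the way drives complex V, the ATP synthase. Tregs are known for relying on this pathway more than conventional effector T cells do. Complexes I, III, IV and V also hold subunits encoded by mitochondrial DNA. The 13 listed for this work had 0 rows among those analysed here, so only nuclear transcripts are described.

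The targeted gene fitted the labels. Srebf2 stood at 15.6 to 30.5 RPKM in VAT WT and 0.263 to 1.23 in VAT KO. In spleen it stood at 10.5 and 23.2 in WT and at 2.59 and 1.59 in KO. Read depth was unknown. Summed RPKM over all genes ran from 185319 to 210779 per library. All 8 Treg and T cell markers were measured. Foxp3 lay between 13.3 and 16.4 RPKM in VAT and between 6.97 and 8.87 in spleen, and Ctla4, Il2ra and Tnfrsf18 were likewise higher in every VAT library. Cd3e (140.6 to 157 in VAT, 190.0 to 215 in spleen) and Cd3g (133 to 159 and 175 to 299) were lower in every VAT library, and Cd4 and Ikzf2 overlapped.

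Spleen WT replicate 2 stood apart from the other 9 libraries for these genes. The 87 members made up 3.43% of all RPKM in it, against 2.20% in spleen WT replicate 3, 2.32% and 2.41% in spleen KO, 1.73% to 2.07% in VAT WT and 1.83% to 1.996% in VAT KO. The median member was 1.81-fold higher in replicate 2 than in replicate 3 on the log2(RPKM + 1) scale, where the median over all 10429 tested genes was 0.984-fold. In replicate 2, 84 members were higher and 68 were over 1.5-fold higher, a share of 78.2% where 15.2% of all tested genes passed that fold. The median SD of a member was 0.60 log2 units in spleen WT, against 0.19 in VAT WT, 0.12 in VAT KO and 0.10 in spleen KO. Results that rest on this library are therefore given with and without it. Leaving it out leaves a lone spleen WT library, which is then assumed to vary like the other groups.

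**Figure D1:**
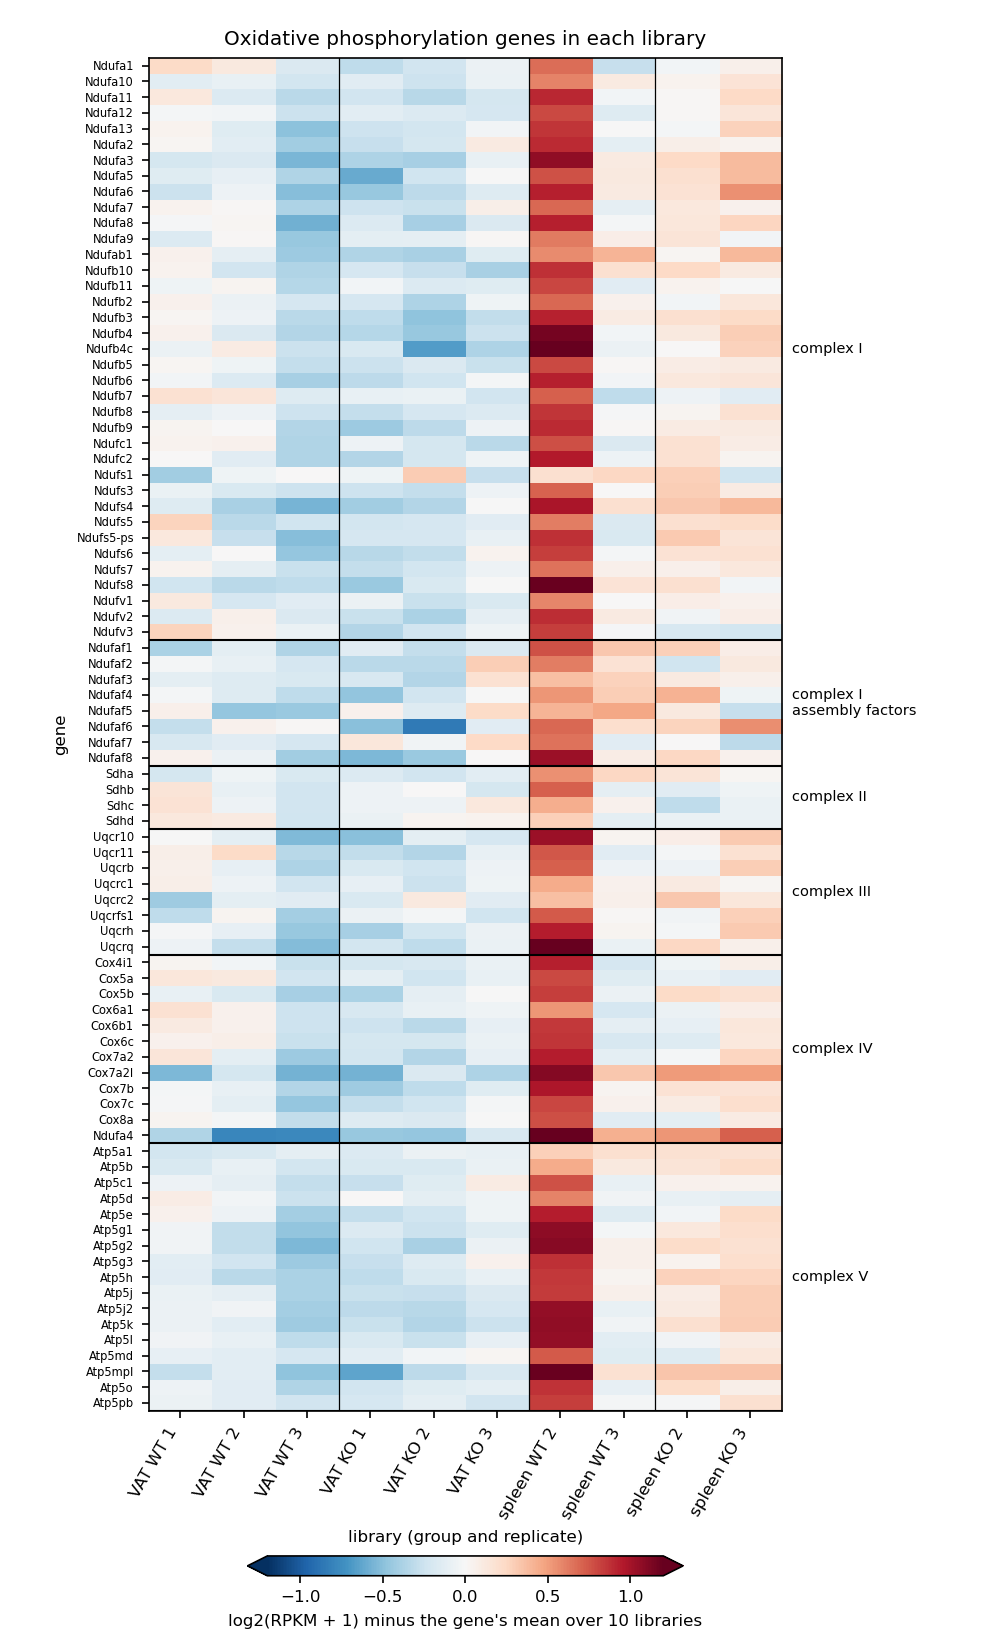
Levels of 86 of the 87 genes (rows, by complex) in the 10 libraries (columns), as log2(RPKM + 1) minus the gene's mean over the 10 libraries; colours end at 1.2 units either way. The column of spleen WT replicate 2 is red for nearly all genes, and Ndufa4 and Cox7a2l are also red in the other 3 spleen libraries.

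The difference between these 2 libraries was not even over the genes. The 4 largest were in Ndufb4c (RPKM ratio 2.57), Uqcrq (2.52), Ndufb4 (2.32) and Atp5l (2.29), all small accessory proteins or a copy of one. Among the smallest were those in Ndufaf5 (0.959), Ndufs1 (0.965) and Ndufaf3 (1.06). Ndufs1 is a large protein of the complex I core, and Ndufaf5 and Ndufaf3 are assembly factors. Across 85 members with a coding length in GENCODE, the log2 difference was smaller in genes of longer coding sequence (Pearson's r = -0.66, Spearman's rho = -0.62). Across 10061 tested genes r was -0.35. Every point comes from the same 2 libraries, so no p is given. The median difference was 1.91-fold in 49 members under 500 nt, 1.72-fold in 22 of 500 to 1000 nt and 1.29-fold in 14 over 1000 nt. Among the 71 members under 1000 nt r was -0.41. The median coding length was 441 nt for members and 1368 nt for all tested genes. Genes with symbols in Rpl or Rps and a digit, mainly of the cytosolic ribosome, differed too, with a median of 1.85-fold over 92. Those in Mrpl or Mrps, of the mitochondrial ribosome, had a median of 1.43-fold over 78. The coding lengths of these sets were not examined separately. The part of coding length in the results below was not tested.

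**Figure D2:**
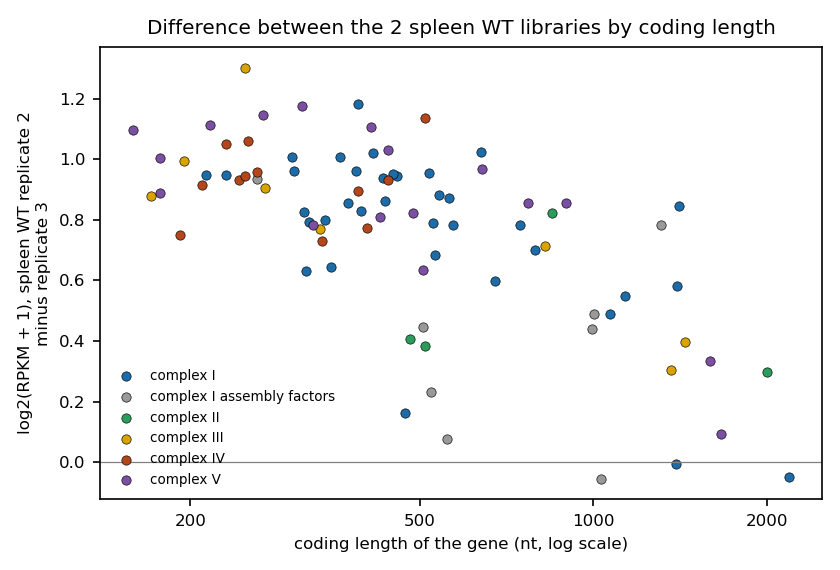
Difference between spleen WT replicate 2 and replicate 3 in log2(RPKM + 1) (vertical axis) against coding length on a log scale (horizontal axis) for the 85 members with a coding length, coloured by complex. Genes under 500 nt lie highest, at a median of 1.91-fold, and the longest gene, Ndufs1, lies near 0.

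Within each complex the RPKM levels, which are per gene length, covered a wide range. In complex I the highest mean over all libraries was that of Ndufa1 (190 RPKM, 150 to 297 over the libraries), a small membrane subunit, and the lowest that of Ndufb2 (6.51 RPKM, 4.69 to 10.8). The assembly factors, which build complex I and do not remain in it, were lower, from 2.95 RPKM for Ndufaf2 to 17.3 for Ndufaf8. In complex II the range ran from Sdhc (20.2 RPKM) to Sdhd (103). In complex III the range ran from Uqcrq (34.3 RPKM) to Uqcrb (98.3). In complex IV it ran from Cox7a2l (25.4) to Cox6a1 (161), and in complex V from Atp5g1 (10.6) to Atp5b (124), the catalytic beta subunit. For c ring subunits, which rotate as protons pass and are encoded by 3 genes, the order was the same in every group. Atp5g3 gave 57.6% to 61.1% of their summed RPKM as group means, Atp5g2 28.3% to 31.2% and Atp5g1 10.6% to 11.2%. The muscle and tissue-specific forms of Cox6a, Cox7a and Cox8 had no row among those analysed here.

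Whether these genes changed when Srebf2 was lost from adipose Tregs was asked by setting VAT KO against VAT WT. None of the 87 passed the test, where 0.422% of all 10429 genes were called, 0.115% lower and 0.307% higher (limma, Benjamini-Hochberg adjusted p under 0.05). Also 0 members had an unadjusted p under 0.05. The median log2 change was -0.04, with 53 members below 0, against 0.02 over all tested genes. By complex the medians were -0.07 for complex I, 0.01 for its assembly factors, -0.01 for complex II, -0.03 for complex III, -0.08 for complex IV and 0.01 for complex V. The precision was fair. The 95% interval of the change lay within 2-fold either way for all 87 members and within 1.5-fold for 65, and the median standard error was 0.20 log2 units. The fit shared the spread of each gene over all groups, so these widths also carry the spread of spleen WT. The median SD of a member was 0.60 log2 units in spleen WT, against 0.19 in VAT WT and 0.12 in VAT KO. Smaller changes may have been missed in this fit of 3 libraries against 3. The limit set by the VAT libraries alone is not given.

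The 4 members with the smallest p were Ndufaf6, Ndufaf5, Ndufv3 and Ndufaf7. Ndufaf6, an assembly factor of complex I, stood at 2.51, 3.42 and 3.32 RPKM in VAT WT and at 2.02, 1.37 and 2.88 in VAT KO. The groups overlapped, and the log2 change was -0.42 ± 0.23 (SE; limma adjusted p = 0.837). Ndufaf5 had a log2 change of 0.32 ± 0.21, Ndufv3, a small subunit beside the NADH site, at -0.29 ± 0.20, and Ndufaf7, a methyltransferase for complex I, at 0.29 ± 0.21 (limma adjusted p = 0.895, 0.931 and 0.937). Each interval included 0.

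In spleen 0 members passed the same comparison, as did 0% of all genes, but 3 members had an unadjusted p under 0.05. The median log2 change was -0.29, with 86 of 87 members below 0, against -0.03 over all tested genes. This median turned to 0.14 without spleen WT replicate 2, with 67 members above 0 and again 0 called (0.0484% of all genes were called lower). Without replicate 3 it was -0.71, and 51 members fell (58.6%, against 6.38% of all genes lower). The sign of the spleen difference thus depended on which WT library was kept. By complex, leaving out replicate 2 moved the medians from -0.29 to 0.16 for complex I, -0.24 to 0.17 for complex III, -0.31 to 0.17 for complex IV and -0.29 to 0.14 for complex V. It moved them from -0.38 to -0.13 for the assembly factors and from -0.36 to -0.08 for complex II.

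The 4 members with the smallest p in spleen were Ndufv3, Ndufs8, Sdhc and Ndufv2. Ndufv3 stood at 32.3 and 17.5 RPKM in WT and at 15.4 and 15.1 in KO, so that both KO libraries were lower (log2 change -0.61 ± 0.25, limma adjusted p = 0.594). Without spleen WT replicate 2 the change was -0.19. Ndufs8, an iron-sulfur protein of the complex I core, stood at 85.5 and 41.5 RPKM in WT and 42.4 and 36.1 in KO, which overlapped (-0.60 ± 0.27, limma adjusted p = 0.594; -0.08 without replicate 2). Sdhc stood at -0.44 ± 0.20 (-0.25 without replicate 2) and Ndufv2, a core subunit at the NADH site, at -0.47 ± 0.22 (-0.08 without replicate 2), with limma adjusted p of 0.594 and 0.596.

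The difference of the genotype change between tissues was tested directly, and 0 members passed (0% of all genes). The smallest p was that of Ndufaf5 (interaction 0.84 ± 0.32 log2 units, limma adjusted p = 0.652), the only member with an unadjusted p under 0.05. The median interaction was 0.24 over members with all libraries and -0.15 without spleen WT replicate 2. Without replicate 3 it was 0.68, against 0.04 over all tested genes.

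Between tissues in WT, 27 of 87 members fell in VAT and 0 rose. This is 31.0% of members, where 26.1% of all tested genes were called, 15.4% lower and 10.7% higher. All 87 changes were below 0, with a median of -0.55 against -0.12 over all tested genes. The called genes were 10 subunits of complex I, 2 assembly factors, 1 subunit of complex II, 2 of complex III, 4 of complex IV and 8 of complex V. Without spleen WT replicate 2 only Ndufa4 and Cox7a2l remained (2.30% of members, where 8.67% of all genes were called lower), and the median was -0.17, with 19 members above 0. All genes then had a median of -0.14. Without replicate 3, 78 fell (89.7%, against 21.4% of all genes). Scaling by median ratios moved the median of all genes in this comparison from -0.12 to 0.01. It left 7 members called, where 1030 of all tested genes were called lower (27 and 1607 before). The member median relative to all genes was -0.43 before and -0.41 after. Under that scaling 42.5% of all called genes were lower in VAT, against 59.0% before. Before scaling, the Mrpl and Mrps genes had a WT median of -0.59 and the Rpl and Rps genes one of -0.90. Without spleen WT replicate 2 these medians were -0.35 and -0.47.

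In KO, whose spleen libraries lay close together, 3 members fell in VAT and 0 rose. The 3 were Ndufa4, Cox7a2l and Ndufaf6, 3.45% of members, where 14.6% of all genes were called, 6.94% lower and 7.65% higher. The median change was -0.31 with 80 members below 0, against -0.09 over all genes. The Mrpl and Mrps genes had a median of -0.30, with 72 of 78 below 0. The Rpl and Rps genes had a median of -0.56, with 87 of 92 below 0. A lower level in VAT was thus not particular to the members. The spread that limma shared over all groups included that of spleen WT. With the KO groups fitted alone 19 members fell (21.8%, against 11.4% of all genes). Leaving out spleen WT replicate 2 or spleen WT replicate 3 also gave 19, the same genes in both fits, of which 17 passed with the KO groups alone. With spleen WT replicate 2 left out they were 8 subunits of complex I, 1 assembly factor, 3 of complex IV and 7 of complex V (11.4% of all genes lower in that fit). Leaving out 1 spleen KO library or VAT KO replicate 1 gave 0 calls, and leaving out VAT KO replicate 2 gave 1. Complex II differed from this picture in its values, with a median of 0.04 in KO and 3 of 4 members above 0.

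Without regard to the fit, 27 members (31.0%) had all 6 VAT libraries below all 4 spleen libraries, as did 15.4% of all tested genes. Against the 3 spleen libraries other than spleen WT replicate 2 the count was again 27 of 87, where 20.7% of all genes met it. In bulk samples, fewer cells of a kind and less RNA per cell cannot be told apart.

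**Figure D3:**
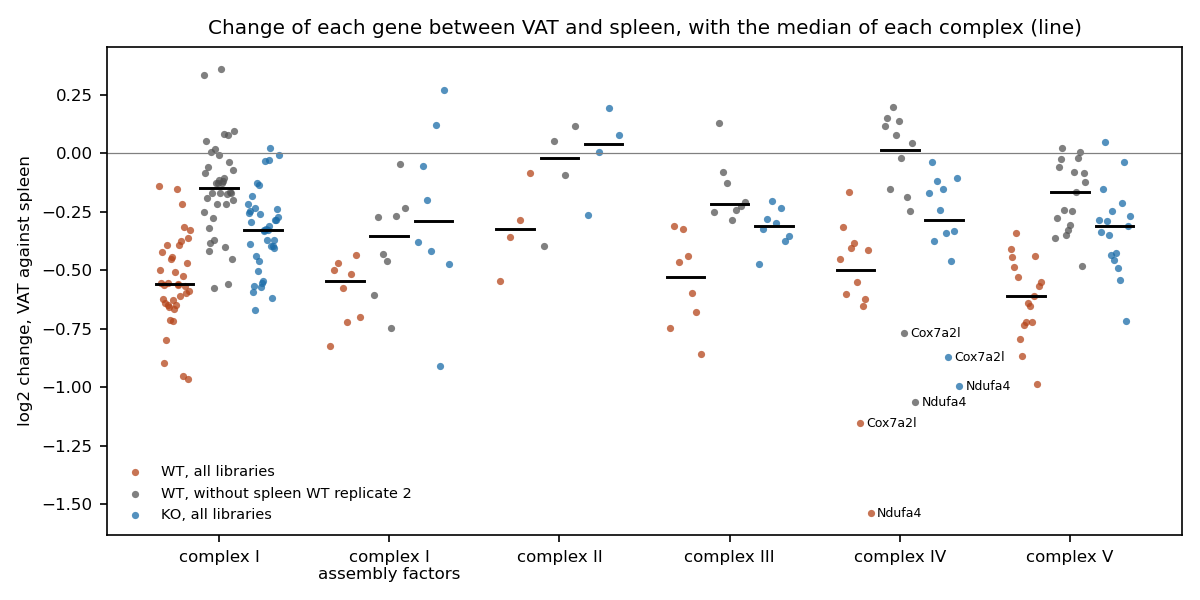
Log2 change between VAT and spleen (vertical axis; below 0 is lower in VAT) for each gene by complex, in WT with all libraries, in WT without spleen WT replicate 2 and in KO; short lines are medians. The WT points shift up without replicate 2, and Ndufa4 and Cox7a2l lie lowest in complex IV in all 3 sets.

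**Figure D4:**
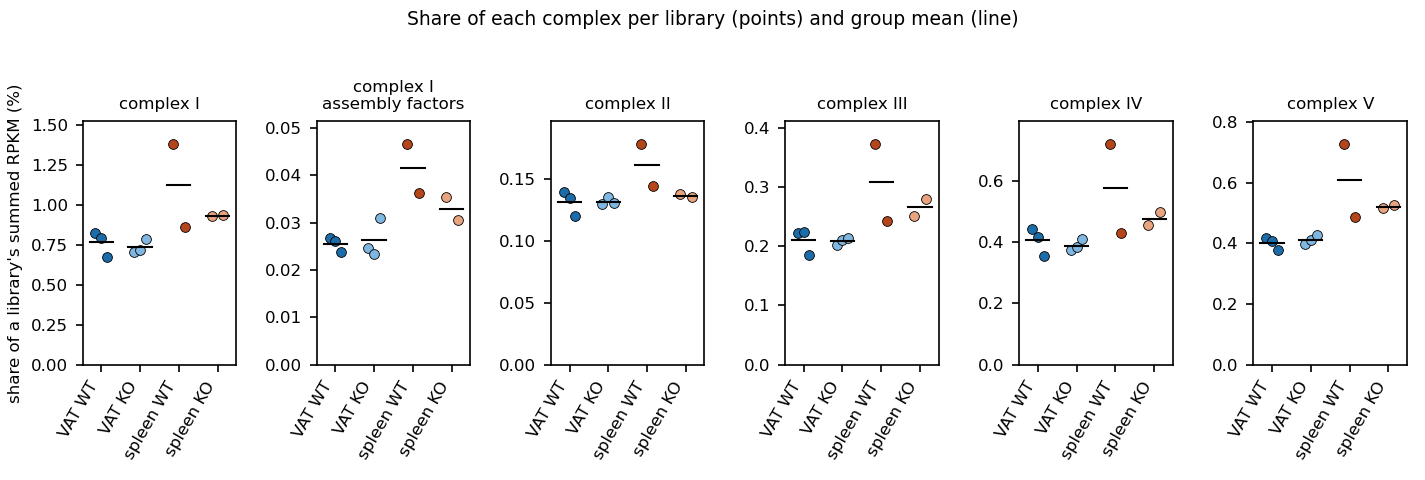
Share of a library's summed RPKM held by each complex, per library (points), with the group mean (line). For complex I, complex III and complex V each VAT library lies below each spleen library, for complex IV VAT WT replicate 1 lies above spleen WT replicate 3, and for complex II the VAT and spleen KO libraries overlap.

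Complex II, the succinate dehydrogenase shared with the tricarboxylic acid cycle, had the median tissue change nearest to 0 of the complexes in WT and in KO with all libraries. Sdhd, a membrane anchor and its most abundant transcript, stood at 112, 111 and 86.9 RPKM in VAT WT and 97.1, 105 and 106 in VAT KO. In spleen it stood at 126 and 94.5 in WT and 97.1 and 97.3 in KO. These groups overlapped. Its tissue change was -0.09 ± 0.16 in WT (limma adjusted p = 0.723; 0.12 without spleen WT replicate 2) and 0.08 ± 0.16 in KO (0.803), with a 95% interval of -0.43 to 0.26 in WT. Sdhb, the iron-sulfur subunit, stood at -0.36 ± 0.21 in WT (0.053 without spleen WT replicate 2) and 0.005 ± 0.21 in KO. Its highest value, 118 RPKM, was in spleen WT replicate 2, and the other 9 libraries ran from 60.6 to 79.4 with both tissues mixed. Sdhc, the other anchor, stood at -0.29 ± 0.18 in WT (-0.094 without that library) and 0.20 ± 0.18 in KO. Spleen KO held 16.0 and 18.8 RPKM of it, within or below the 16.9 to 22.65 of VAT WT. None of these passed.

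Sdha, the flavoprotein that oxidizes succinate, fell in WT. It stood at 62.0, 69.5 and 63.2 RPKM in VAT WT and 63.9, 61.1 and 65.6 in VAT KO. Spleen WT held 105 and 85.6, and spleen KO 80.0 and 73.0. All VAT libraries were below all spleen libraries. The WT change was -0.54 ± 0.14 (limma adjusted p = 0.0118), and -0.40 without spleen WT replicate 2 (0.0634). In KO it was -0.26 ± 0.14 (0.233).

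In complex I, Ndufs4, an accessory subunit needed for a stable complex, stood at 15.1, 12.7 and 11.2 RPKM in VAT WT and 12.4, 13.0 and 16.8 in VAT KO. Spleen WT held 34.3 and 19.4, and spleen KO 21.4 and 22.5. No VAT library reached a spleen value. It fell in WT by 0.95 ± 0.23 on the log2 scale (limma adjusted p = 0.00966), but the change was -0.56 without spleen WT replicate 2 (0.103) and -0.62 in KO (0.0972). Over the 20 fits run, Ndufs4 passed in KO in 4, among them those with sample weights and with the KO groups alone. The assembly factor Ndufaf1 fell in WT by 0.82 ± 0.19 (limma adjusted p = 0.00823), from 15.7 and 11.3 RPKM in spleen to 6.59, 8.14 and 6.68 in VAT. It stood at -0.60 without spleen WT replicate 2 (0.0739) and at -0.38 ± 0.19 in KO (0.227), and the WT call was also lost with sample weights. Ndufaf6 fell in KO, from 4.13 and 5.31 RPKM in spleen to 2.02, 1.37 and 2.88 in VAT (-0.91 ± 0.26, limma adjusted p = 0.0348). In WT it stood at -0.51 ± 0.26 (0.166), and at -0.27 without spleen WT replicate 2. The KO call was lost without VAT KO replicate 1 or 2, VAT WT replicate 3 or either spleen KO library (limma adjusted p up to 0.245), with scaling by median ratios, with the replicate block and with a filter at a mean RPKM of 5, which leaves the gene out.

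In complex V, Atp5mpl, a small membrane subunit of the synthase, stood at 23.3, 26.025 and 20.1 RPKM in VAT WT and 18.0, 22.7 and 24.9 in VAT KO. Spleen WT held 66.5 and 32.6, and spleen KO 36.2 and 36.5. It fell in WT by 0.99 ± 0.25 (limma adjusted p = 0.0122). The change was -0.48 without spleen WT replicate 2 (0.124) and -0.72 in KO (0.0774). Atp5mpl passed in KO in 4 of the 20 fits, among them those with sample weights and with the KO groups alone. All 3 c ring genes fell in WT, Atp5g2 by 0.87, Atp5g1 by 0.79 and Atp5g3 by 0.73 (limma adjusted p = 0.0251, 0.0468 and 0.0231). In KO their changes were -0.43, -0.35 and -0.25, and 0 of the 3 passed. Without spleen WT replicate 2 the WT changes were -0.35 for Atp5g2, -0.24 for Atp5g1 and -0.33 for Atp5g3, and 0 of the 3 passed. Over the 20 fits run, Atp5g1 passed in WT in 4 and Atp5g2 and Atp5g3 in 14 each.

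Ndufa4 and Cox7a2l gave the largest tissue differences of all members in WT, with and without spleen WT replicate 2. Ndufa4 (chromosome 6, 11900372 to 11907450, minus strand, mm10) was named as a complex I subunit and is now placed in complex IV. It stood at 24.1, 17.8 and 17.9 RPKM in VAT WT and 22.6, 22.4 and 27.2 in VAT KO. Spleen WT held 82.5 and 42.4, and spleen KO 45.7 and 52.0. The lowest spleen library thus lay well above the highest VAT library. The WT change was -1.54 ± 0.24 (limma adjusted p = 0.00058), -1.06 without spleen WT replicate 2 (0.00322), and -0.996 ± 0.24 in KO (0.0148). In WT it passed in all 20 fits run, with changes from -2.01 to -1.06 when a library was left out. In KO it passed in 16 of 20, and was lost without either spleen KO library, VAT KO replicate 1 or VAT KO replicate 2 (limma adjusted p up to 0.129).

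Cox7a2l (chromosome 17, 83501917 to 83514333, minus strand, mm10) encodes a protein that joins complexes III and IV into supercomplexes. It stood at 15.8, 20.2 and 15.5 RPKM in VAT WT and 15.6, 20.7 and 18.0 in VAT KO. Spleen WT held 51.5 and 29.7, and spleen KO 33.9 and 33.4. Again no VAT library reached a spleen value. The change was -1.15 ± 0.22 in WT (limma adjusted p = 0.00227), -0.77 without spleen WT replicate 2 (0.0211) and -0.87 ± 0.22 in KO (0.0187). It passed in all 20 fits in WT and in 17 of 20 in KO, where it was lost without either spleen KO library or VAT KO replicate 1 (limma adjusted p up to 0.116). Its relative Cox7a2 stood at -0.55 ± 0.26 in WT (-0.019 without spleen WT replicate 2) and -0.34 ± 0.26 in KO, and none of these passed. Cox7a2l made up 23.4% ± 4.09 of the summed RPKM of this pair in VAT WT and 25.4% ± 3.91 in VAT KO (SD, n = 3 each). It made up 32.1% ± 2.98 in spleen WT and 33.3% ± 3.37 in spleen KO (SD, n = 2 each). For complex IV as a whole, the median over all 12 genes in WT without spleen WT replicate 2 was 0.01, with 6 above 0. In KO all 12 were below 0, with a median of -0.29.

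A relative of Ndufa4 outside the symbol rule went the other way. AA467197 (chromosome 2, 122637887 to 122641076, mm10), also called Nmes1, encodes a protein alike to Ndufa4 that can take its place in complex IV, and its transcript also holds the microRNA gene Mir147. It was looked up after the Ndufa4 values were seen. AA467197 stood at 117, 86.2 and 79.0 RPKM in VAT WT and at 59.1, 51.3 and 81.99 in VAT KO. In spleen it stood at 1.12 and 0.219 in WT and at 0.147 and 0.242 in KO. It rose in VAT by 5.87 ± 0.27 log2 units in WT and 5.74 ± 0.27 in KO (limma adjusted p = 1.1e-08 and 2.0e-08). Since its spleen values are near 0, the size depends on the pseudocount and ran from 4.11 to 7.22 in WT and from 3.71 to 7.76 in KO over the alternatives other than leaving out a library. Per gene length it was 2.29 to 4.85 times as abundant as Ndufa4 in the 6 VAT libraries and 0.00322 to 0.0136 times in the 4 spleen libraries. In VAT KO it stood at -0.55 ± 0.24 against VAT WT (limma adjusted p = 0.631).

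**Figure D5:**
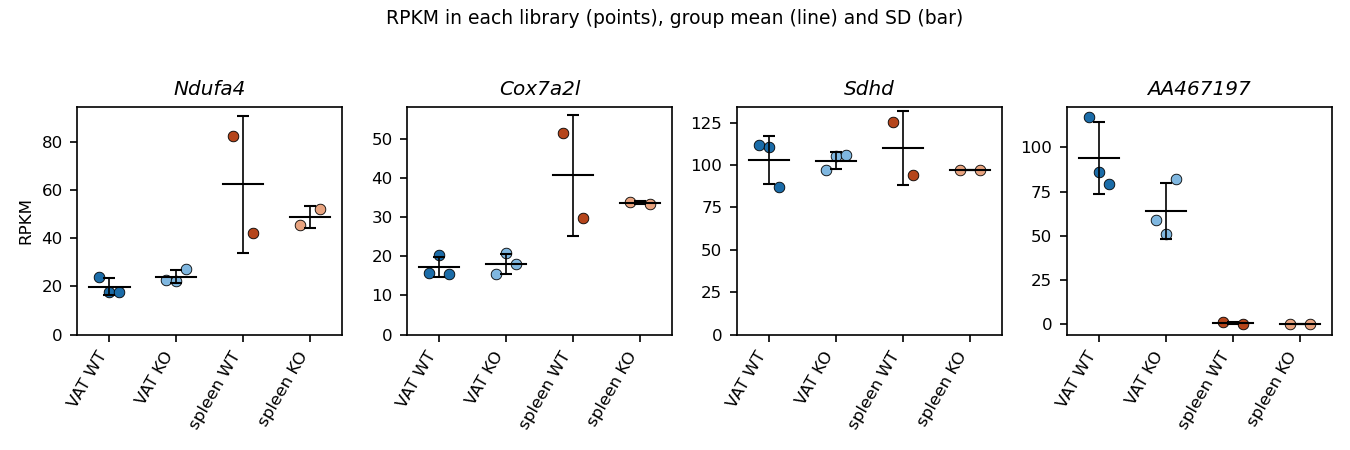
RPKM of Ndufa4, Cox7a2l, Sdhd and AA467197 in each library (points), with group mean (line) and SD (bar). Ndufa4 and Cox7a2l are lower in each VAT library than in each spleen library, Sdhd overlaps between tissues, and AA467197 is at 51.3 to 117 in VAT and at most 1.12 in spleen.

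The Mir147 hairpin (chr2:122640803-122640881, plus strand, GRCm38.p6, from RefSeq) lies within the span of AA467197. It is shown because the longest run it shares with Ndufa4 is of 8 bases: 8 bases of its 3′ arm, in capitals below, are the reverse complement of 8 bases in the 3′ UTR of Ndufa4, in capitals in the Ndufa4 line (chromosome 6, from GENCODE, position 52 of a UTR of 162 bases).
Mir147 hairpin: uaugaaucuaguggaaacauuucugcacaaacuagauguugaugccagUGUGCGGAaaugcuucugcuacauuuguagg
Ndufa4 3′ UTR: tctttcagaagccaTCCGCACAattttcca
The 8 bases TCCGCACA were found in the 3′ UTR of 1 of 85 members with an annotated UTR, Ndufa4, and in 67 of 10047 tested genes (0.667%). The 8 bases were chosen from this match, so it was fixed in advance that Ndufa4 holds them. The count thus does not measure how specific the site is to Ndufa4. A match of letters is a description. The level of the microRNA was not measured here, and whether it acts on Ndufa4 in these cells was not tested.

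Promoters of the members were set beside those of all tested genes. Members that fell in VAT were not compared with the others, and a link of the motifs to the tissue difference was not tested. RefSeq gave a promoter for 72 of 87 members, and motifs were searched on both strands from 250 bases before to 50 bases after the start. The motif of NRF1, a factor known to bind many respiratory genes, was in 19 of 72 members (26.4%) and in 12.8% of 8440 tested genes. The YY1 motif AAGATGGCG was in 11.1% of members and 4.10% of genes. The motif AAGGTCA of estrogen-related receptors was in 11.1% and 3.74%, and the ETS motif CCGGAAG in 26.4% and 22.7%. The 250 bases before the start of Ndufa4 and Cox7a2l, shown because these genes differed most between tissues, held none of the 4 motifs. Those of Atp5k, a small synthase subunit, are shown as a member that held the NRF1 motif, in capitals. Over the whole window searched, Atp5k also held the ETS and estrogen-related receptor motifs, which do not lie wholly in the bases shown. All 3 stretches lie on the minus strand of GRCm38.p6, at chr6:11907451-11907700, chr17:83514334-83514583 and chr5:108434400-108434649.
Ndufa4: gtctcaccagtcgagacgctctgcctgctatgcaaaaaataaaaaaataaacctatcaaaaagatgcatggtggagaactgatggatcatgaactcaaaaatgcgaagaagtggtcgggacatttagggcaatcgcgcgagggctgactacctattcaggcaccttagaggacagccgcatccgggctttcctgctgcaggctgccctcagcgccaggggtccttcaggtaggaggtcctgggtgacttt
Cox7a2l: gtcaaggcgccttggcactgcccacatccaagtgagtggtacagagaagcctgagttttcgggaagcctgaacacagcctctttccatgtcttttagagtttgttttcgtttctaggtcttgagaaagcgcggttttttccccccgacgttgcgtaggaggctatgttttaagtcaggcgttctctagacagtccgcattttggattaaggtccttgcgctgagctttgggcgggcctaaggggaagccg
Atp5k: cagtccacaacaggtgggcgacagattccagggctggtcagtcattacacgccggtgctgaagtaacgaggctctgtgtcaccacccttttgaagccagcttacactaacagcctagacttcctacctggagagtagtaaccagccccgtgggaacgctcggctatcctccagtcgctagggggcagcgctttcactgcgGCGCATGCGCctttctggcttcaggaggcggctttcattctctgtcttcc
No match says only that these letters are not in this window.

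Other genes of the pathway were read from lists chosen by function. The shares to read their counts against are the 15.4% of all genes called lower and 10.7% higher in VAT in WT, and the 6.94% and 7.65% in KO. With all libraries, 10 of 36 assembly factors outside the symbol rule fell in VAT in WT and 4 in KO, and 0 rose. The medians were -0.38 in WT (-0.29 without spleen WT replicate 2) and -0.31 in KO, against -0.12 and -0.09 over all genes. Coa7, a complex IV factor, had opposite signs in the genotypes. It fell by 1.06 in WT (limma adjusted p = 0.0222). In the fit without spleen WT replicate 2 it stood at -0.49 in WT and 0.66 in KO. In KO it was higher in every VAT library (4.97, 3.88 and 4.75 RPKM) than in spleen (2.27 and 2.75). Sdhaf1, an assembly factor of complex II, stood at 7.94 to 11.3 RPKM in VAT WT, 11.2 to 12.7 in VAT KO, 52.2 and 29.8 in spleen WT and 22.8 and 22.6 in spleen KO. It fell by 1.91 ± 0.22 in WT (limma adjusted p = 5.2e-05; -1.52 without spleen WT replicate 2, 0.000297) and by 0.86 ± 0.22 in KO (0.0206). Surf1, which assembles complex IV, fell by 1.11 ± 0.20 in WT (0.00153; -0.84 without spleen WT replicate 2, 0.0156) and by 0.75 ± 0.20 in KO (0.0241). Only these 2 of the 36 passed in WT without that library. Uqcc3, a complex III factor, and Cox14, a complex IV factor, stood at -0.45 and -0.48 without it and fell by 0.99 and 0.91 with it (limma adjusted p = 0.00971 and 0.00986). Coa3 and Coa6, both complex IV factors, fell in KO by 0.69 and 0.80 (0.0244 and 0.0427).

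Of 7 electron carriers and remaining subunits, Etfa and Cyc1 fell in WT by 0.70 and 0.58 (limma adjusted p = 0.00593 and 0.0162). Etfa is a chain of the electron transfer flavoprotein of fatty acid oxidation and Cyc1 is cytochrome c1 of complex III. Without spleen WT replicate 2 Etfa passed (-0.48, 0.0421) and Cyc1 did not (-0.38, 0.110). In KO, Etfb, the partner of Etfa, rose by 0.78 (0.0114; in WT without replicate 2 it also rose, by 0.82, 0.00322) and Dhodh, which feeds electrons from pyrimidine synthesis, fell by 0.84 (0.0175). Of 13 regulators of mitochondrial gene expression, Tfam, which packs and transcribes mitochondrial DNA, and the coactivator Pprc1 fell in WT by 0.66 and 0.82 (0.0105 and 0.0116). They stood at -0.62 and -1.02 without spleen WT replicate 2 and passed there too (0.0420 and 0.0101). Esrra, an estrogen-related receptor, rose in WT by 0.70 (0.0197; 0.69 without replicate 2, 0.0662), and in KO Pprc1 fell by 0.72 (0.0338). Of 13 genes of the tricarboxylic acid cycle, Suclg1, a subunit of succinyl-CoA ligase, fell in both, by 0.75 in WT and 0.62 in KO (0.00826 and 0.0320), but did not pass in WT without replicate 2 (-0.53, 0.0693). Between genotypes 0 genes of these lists were called in either tissue.

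Markers of other cells were measured beside the tissue difference. Of the marker lists, 3 of 6 B cell, 3 of 7 myeloid, 3 of 5 CD8 and NK, 1 of 5 neutrophil and 1 of 5 adipocyte genes had rows, and 0 of 4 red cell genes. Summed RPKM of the B cell genes was 13.0 to 59.9 in VAT and 25.7 to 34.3 in spleen, and of the myeloid genes 0.445 to 4.10 and 1.196 to 5.13. Summed RPKM of the CD8 and NK genes was 74.7 to 191 in VAT and 35.025 to 61.4 in spleen, of which Nkg7 held 56.4 to 179 in VAT. Cd8a itself stood at 0.034 to 1.34 in VAT and 0.371 to 1.99 in spleen, and Cd8b1 at 4.90 to 17.0 in VAT and 10.8 to 18.7 in spleen. Of the myeloid genes, Csf1r stood at 0.034 to 0.144 in VAT and 0.116 to 0.828 in spleen. Adgre1 stood at 0.03 to 0.366 and 0.226 to 1.445, and Fcer1g at 0.16 to 3.953 and 0.854 to 2.855. The neutrophil list rested on Mmp9, at 112 to 217 in VAT and 0.387 to 4.93 in spleen. The adipocyte list rested on Lipe, at 1.63 to 2.96 and 2.26 to 3.40. Their part in the tissue difference was not tested.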

How the data were processed

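Bulk RNA sequencing values of sorted Tregs were used. The authors deposited 1 table of RPKM per gene and library, per the file headers. A Quick-RNA MicroPrep kit, SMART-seq for low input and Nextera XT, which does not mark strand, were used per the labels' protocols. Alignment used STAR and mm10, per the submitters' processing notes. How reads were counted, with which gene models and which row filter, is not given in the sources used here. Read depth is unknown, so counting error could not be estimated, and low members can carry more of it. Of 11 labelled samples 10 have a matching column. The planned fit had assumed all 11. Spleen KO replicate 1 was not analysed here, and 1 column, headed as a spleen WT replicate 1, matches no label and was not used. Whether it is a further spleen WT library or a renamed one is unknown.

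Values were analysed as log2(RPKM + 1), which understates changes of low genes, over the 10429 genes that reached 1 RPKM in 2 or more libraries. One limma (3.58.1, R 4.3.3; trend, not robust) model of the 4 group means gave all comparisons, with 6 residual and 6.44 prior degrees of freedom. Tests were two-sided with Benjamini-Hochberg adjustment over all tested genes, and genes were called under 0.05. Intervals are 95% intervals from the same fit, SE is limma's and SD is over the libraries of a group. The fit was also run on simulated data with independent noise and 1 spread per gene for all groups. That run held no shift like that of spleen WT replicate 2, and its outcome is not given.

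The members and lists were chosen with earlier results of these data known. Members were named by rule: those called, up to the 6 with the smallest p in each direction, or, with 0 called, the 4 of smallest p, the highest and lowest member of each complex, the Sdh genes, isoform families and the 4 with the largest difference each way between the spleen WT libraries. From the other lists up to 4 called genes were named. Results on 1 member by itself are not reported here. AA467197 and the motifs were chosen later. Entrez identifiers of all 87 members matched the RefSeq table of GRCm38.p6, which is mm10. Coding lengths and UTRs came from GENCODE M21. The alternatives changed the pseudocount (0.1 or 5), the filter (none, or a mean RPKM of 5) or the scaling (quantile, or by median ratios). Others fitted only the groups compared, weighted the samples, took the replicate number as a block or dropped 1 library at a time.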

Additional observations from a re-analysis of the deposited data

How the results depend on the processing

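Counts of called members and member medians were recomputed in the 5 comparisons under each alternative. Of these values 158 stayed within 1.5 times the count, or for medians within 0.246 log2 units, the pooled SD of the members' mean level between libraries of a group, and 30 did not. The spleen WT libraries, which lay widest apart, enter that SD and so widen the limit. The 158 also include counts that were 0 in every fit, those of VAT KO against VAT WT. Whether same-numbered libraries were paired is not known. Correlations of deviations ran from -0.147 to 0.049 between same-numbered WT and KO libraries. Between same-numbered VAT and spleen libraries they were 0.092 and 0.184 in WT and 0.0031 and 0.046 in KO. In groups of 2 libraries the deviations mirror each other, so these values cannot decide whether samples were paired. With the number as a block 12 members were called between tissues in WT and 2 in KO, with all other counts at 0. Between tissues, alternatives other than leaving out a library called 1318 to 2787 of all tested genes either way in WT. In KO they called 1096 to 2329. Of all tested genes, 1030 were called lower in WT with scaling by median ratios and 723 in KO with quantile normalization. For the replicate block and sample weights the share of all genes called lower is not given, so those member counts lack a background. In WT the count of members lower in VAT was 27. It was 7 with scaling by median ratios, 7 with sample weights and 6 with the compared groups alone, and 2 to 78 with a library left out (8 without VAT WT replicate 3, 13 without replicate 2 and 14 without replicate 1 of that group, and 17 without either spleen KO library, VAT KO replicate 1 or VAT KO replicate 2). In KO the count of 3 became 5 with quantile normalization, 14 with sample weights, 19 with the compared groups alone and 0 to 19 with a library left out. The count of 0 in spleen KO against WT ran from 0 to 51, and that of the interaction from 0 to 10, when a library was left out. Member medians then ran from -0.71 to 0.14 for spleen KO against WT, from -0.96 to -0.17 for tissue in WT, from -0.35 to -0.27 for tissue in KO, from -0.15 to 0.68 for the interaction and from -0.13 to 0.03 for VAT KO against WT, where the count was 0 in each fit. The turns of sign came without spleen WT replicate 2, apart from the last range. Sdhd turned from -0.09 to 0.072 in WT with scaling by median ratios and ran from -0.29 to 0.12 with a library left out (0.12 without spleen WT replicate 2 and 0.032 without VAT WT replicate 3). The cause of these shifts was not tested. Read depth was unknown, and 2 libraries per spleen group limit the precision there.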
